A study of Mus musculus with 8 samples.

Results

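A group of 8 genes of T cell development were followed in RNA from mouse hearts: Rag1, Dntt, Bcl11b, Satb1, Lef1, Arpp21, Tbata and Ccl25. They were taken by name, 8 of 6106 genes with a single symbol on the array, and were covered by 10 probes of 9607 rows in the table. They had been chosen by their female over male ratios on these arrays at both ages, so those ratios are described here and not tested. All 8 had values on enough arrays to be used, as did 5851 genes in all. The samples were hearts of C57BL/6 mice, an inbred strain with no added transgene or treatment named in the labels, from females and males aged 2 or 8 months. The RNA of 6 whole hearts went into each of 4 pools, female or male at either age. Each of 8 cDNA arrays compared the female with the male pool of 1 age, labelled in the dyes Cy3 and Cy5, and each age had 4 arrays. Cy3 marked the female pool on replicates 1 and 3, and the dyes were exchanged on replicates 2 and 4. The 4 arrays of an age read the same 2 RNA pools, so their SD is technical, the design has 1 pool per sex at each age, and no test across animals exists at either age.

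T cells develop in the thymus, an organ that lies just above the heart in the chest. There, immature thymocytes cut and rejoin the gene segments of the T cell receptor with the RAG recombinase, and the enzyme terminal transferase adds untemplated bases at the joints. A set of transcription factors commits the cells to the T lineage, while the stroma, chiefly thymic epithelium, supplies chemokines and Notch ligands. Rag1 and Dntt are active in developing lymphocytes and silent in mature T cells, so they mark immature cells more narrowly than the genes of the T cell receptor complex do.

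Values are log2 ratios of the female over the male pool, and an age's value is the mean of its 2 dye orientations. A size rule was used in place of a test at each age: a ratio of at least 1.5-fold, which is 0.58 on the log2 scale, and the same sign on every array of that age with a value. The sex labels were checked with Xist, the RNA of the inactive X chromosome, at 2.44 and 3.45 at 2 and 8 months, and with the Y-linked genes Kdm5d at -2.43 and -2.88 and Eif2s3y at -3.18 and -1.87. Replicates 1 and 2 at 8 months drifted with probe number: their ratios had interquartile ranges of 1.18 and 1.56 against 0.30 to 0.46 on the other 6 arrays. For this reason 8-month means of members, medians of lists and calls in lists are also given from replicates 3 and 4 alone. The table holds ratios without intensities, so the level of a gene, and the presence of heart markers as such, cannot be read from it.

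Rag1, the catalytic subunit of the RAG recombinase, had the largest ratio of the 5851 named genes at 2 months. It was read by probe 2938. On replicates 1 to 4 it was at 5.11, 4.84, 4.21 and 3.77, a mean of 4.48 ± 0.60 (SD, n = 4 arrays) or 22.4-fold more in the female pool. The dye orientations differed by less than the SD of the arrays, with a mean of 4.66 where the female pool was in Cy3 and 4.31 where it was in Cy5. In a pool of whole tissue, more cells of a type and more RNA per cell cannot be told apart, and the share of each of the 6 hearts was not measured.

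At 8 months the female pool still had more Rag1 on each array, at 0.21, 2.11, 0.60 and 1.69, with a mean of 1.15 ± 0.90, or 2.22-fold. It then ranked 24 among the genes. The higher values were those of the arrays with the female pool in Cy5, with a mean of 1.90 against 0.40 in the other orientation. Without this step replicates 3 and 4 gave a mean of 1.14. Rag1 met the size rule under all 16 alternative settings, with 0.79 to 1.26. Many of these, such as leaving out an array at 2 months, could not change its value at 8 months and do not test it. No array at 8 months reached the lowest array at 2 months, with a gap of 1.66 between them.

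Dntt, terminal transferase (probe 9491), was next among the 8 genes. At 2 months it was at 4.10, 4.15, 3.03 and 3.12 on replicates 1 to 4, a mean of 3.60 ± 0.61 (SD, n = 4 arrays) or 12.1-fold. It ranked 4 among all genes. At 8 months its values were 0.72, -0.52, 0.28 and 0.28, with a mean of 0.19 ± 0.52, or 0.28 on replicates 3 and 4. The 1 value below 0 came from the uneven replicate 2, where the neighbouring probes had a median of -0.83. Minus the median of the neighbouring probes the 4 arrays were at 0.33, 0.31, 0.32 and 0.25. At 2 months Rag1 exceeded Dntt on each of the 4 arrays, but the ranges overlapped: the lowest Rag1 value was 3.77 and the highest Dntt value 4.15.

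Promoter windows are shown for Rag1, Dntt and Bcl11b, which were higher in the female pool at 2 months, as were other members. The window of Tbata, which was also higher, held none of the motifs searched and is not printed. RefSeq's table of the assembly GRCm38.p6, with 250 bases before and 50 after each start, matched all 8 genes with 24 windows, and Rag1, Dntt, Bcl11b and Tbata had a single start each. The windows of Rag1 (minus strand, chr2:101649483-101649782), Dntt (plus strand, chr19:41029025-41029324) and Bcl11b (minus strand, chr12:108003365-108003664) read, with the motifs searched in capitals:
Rag1: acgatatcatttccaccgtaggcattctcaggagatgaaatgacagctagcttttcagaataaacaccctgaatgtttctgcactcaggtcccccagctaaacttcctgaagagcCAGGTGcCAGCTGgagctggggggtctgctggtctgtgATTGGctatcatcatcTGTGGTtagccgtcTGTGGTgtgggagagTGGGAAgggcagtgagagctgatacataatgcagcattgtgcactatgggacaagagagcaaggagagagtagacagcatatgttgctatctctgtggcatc
Dntt: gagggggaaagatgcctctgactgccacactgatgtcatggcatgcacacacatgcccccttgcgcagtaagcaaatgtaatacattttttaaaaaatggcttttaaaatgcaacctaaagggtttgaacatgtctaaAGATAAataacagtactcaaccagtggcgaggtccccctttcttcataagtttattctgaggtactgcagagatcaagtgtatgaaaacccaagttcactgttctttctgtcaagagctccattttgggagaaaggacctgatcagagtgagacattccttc
Bcl11b: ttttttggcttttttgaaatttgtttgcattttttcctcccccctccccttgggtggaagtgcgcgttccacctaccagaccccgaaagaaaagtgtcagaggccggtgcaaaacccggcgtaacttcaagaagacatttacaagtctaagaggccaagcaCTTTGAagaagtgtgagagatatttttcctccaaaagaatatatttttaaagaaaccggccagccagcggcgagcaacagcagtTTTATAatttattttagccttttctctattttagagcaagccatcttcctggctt

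Both strands of every window were searched. E proteins, which drive early lymphocyte genes, were represented by CAGGTG and by the alternative spelling CAGCTG. Tcf and Lef factors, the family of Lef1 itself, were represented by the letters CTTTGA. For Runx factors, which act in early T cells, the letters were TGTGGT. The Gata family, which includes Gata3, was represented by AGATAA. Ikaros, the product of Ikzf1, was represented by its core letters TGGGAA. The remaining searches were for promoter elements of general use, the TATA box with the letters TATAAA and the CCAAT box. No matches in the printed windows overlapped. In the Rag1 window the capitals mark, from left to right, an E protein motif of each spelling, a CCAAT box on the other strand, 2 Runx motifs and 1 Ikaros motif. The Dntt window held 1 Gata motif, and the Bcl11b window 1 Tcf and Lef motif and 1 TATA box on the other strand. The window of Tbata (plus strand, chr10:61171714-61172013) held none of these letters. Of all 32851 windows in the table, 32.9% held an E protein motif, 16.8% the Runx motif, 11.2% the Gata motif, 25.6% the Ikaros motif, 13.6% a TATA box and 37.4% a CCAAT box, and 5257 windows held the Tcf and Lef motif. Over the 24 windows of the members, some of which overlap, an E protein motif stood in 12, the Tcf and Lef motif in 7, Runx in 4, Gata in 3, Ikaros in 6, a TATA box in 3 and a CCAAT box in 10. Arpp21 alone had 9 of these windows. Counted by gene in the same order, the motifs stood in 4, 4, 2, 3, 3, 3 and 4 of the members. These matches describe letters only.

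Among the transcription factors, Bcl11b, the zinc finger protein that commits cells to the T lineage, was read by 2 probes. At 2 months probe 6311 was at 2.23, 2.26, 1.12 and 0.84 and probe 10406 at 2.43, 2.23, 1.45 and 1.77 on replicates 1 to 4. Their mean was 1.79 ± 0.58 (SD, n = 4 arrays), or 3.46-fold. Every one of these 8 values was above 0, and on both probes replicates 1 and 2 exceeded replicates 3 and 4.

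At 8 months Bcl11b was the member with the lowest ratio, at -0.74 ± 0.79. That value rested on few readings: probe 6311 had -3.15 and -0.21 on replicates 1 and 3 and no measurement on the others, and probe 10406 had -0.43, -0.89 and -0.06 on replicates 1, 2 and 4. The probes neighbouring 6311 on replicate 1 had a median of 0.47. The size rule was met in the lower direction, but the mean was -0.34 without replicate 1, -0.53 without replicate 2 and -0.13 on replicates 3 and 4, none of which met it, and -1.13 without replicate 3. All arrays at 8 months were below 0 and all at 2 months above.

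Satb1, a chromatin organiser abundant in thymocytes (probe 1899), was at 1.79, 1.89, 1.36 and 1.18 at 2 months, a mean of 1.56 ± 0.34 (SD, n = 4 arrays) or 2.94-fold. At 8 months it was at -0.19, 0.93, -0.15 and -0.09, a mean of 0.13 ± 0.54, or -0.12 on replicates 3 and 4. Replicate 2 alone was above 0 there, and it was one of the uneven arrays: the median of its neighbouring probes was 0.94. The lowest array at 2 months was 0.25 above that value.

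Lef1, the HMG box factor that pairs with beta-catenin (probe 3656), had the smallest ratio of the 8 genes at 2 months. It was then at 0.59, 0.63, 0.39 and 0.62, with a mean of 0.56 ± 0.11 (SD, n = 4 arrays) or 1.47-fold. All arrays were above 0, but the mean lay just under the size rule, which Lef1 met without replicate 3, at 0.61. At 8 months its values were -2.81, 0.38, 0.17 and -0.23 and the mean was -0.62 ± 1.48. Replicate 1, where the neighbouring probes had a median of 0.10, set that mean: without it the value was 0.12, and replicates 3 and 4 gave -0.03.

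Arpp21, a cyclic AMP-regulated phosphoprotein known from striatal neurons and, in a longer isoform, from immature thymocytes, was also read by 2 probes. They differed in size at 2 months, with 1.77, 0.71, 1.24 and 0.74 on probe 8441 and 3.03, 2.44, 1.16 and 2.38 on probe 12036. Their mean was 1.68 ± 0.51 (SD, n = 4 arrays), or 3.21-fold, and probe 12036 alone gave 2.25 ± 0.79. At 8 months the mean of the probes was 0.30, 0.11, 0.36 and 0.01 on replicates 1 to 4. All were above 0, and the mean of 0.20 ± 0.16, or 0.19 on replicates 3 and 4, was under the size rule. The common sign holds for the mean of the probes only: probe 8441 was at 0.21, -0.62 and 0.36 on replicates 1 to 3, with no value on replicate 4, and probe 12036 was at 0.39, 0.85, 0.37 and 0.01.

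The last 2 members belong to the thymic stroma rather than to thymocytes. Tbata, expressed in stromal cells of the thymus as well as in testis and brain (probe 10436), was at 3.11, 3.45, 2.56 and 3.44 at 2 months, a mean of 3.14 ± 0.41 (SD, n = 4 arrays) or 8.81-fold. At 8 months it had values on replicates 1, 3 and 4, at 0.40, 0.19 and 0.29, with a mean of 0.29 ± 0.11 (n = 3 arrays), or 0.24 on replicates 3 and 4. The 8-month arrays were thus close together and slightly above 0.

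Ccl25, the chemokine that draws Ccr9-bearing precursors and thymocytes (probe 1835), had the smallest SD of the 7 members that met the size rule at 2 months. At 2 months it was at 2.91, 3.14, 2.63 and 2.96, a mean of 2.91 ± 0.21 (SD, n = 4 arrays) or 7.52-fold. At 8 months it was at -0.14, 1.70, 0.27 and 0.25, a mean of 0.52 ± 0.81. The value of 1.70 came from the uneven replicate 2, where the neighbouring probes had a median of 0.97. Without replicate 1 at 8 months Ccl25 met the size rule, and on replicates 3 and 4 it was at 0.26 and did not.

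**Figure D1:**
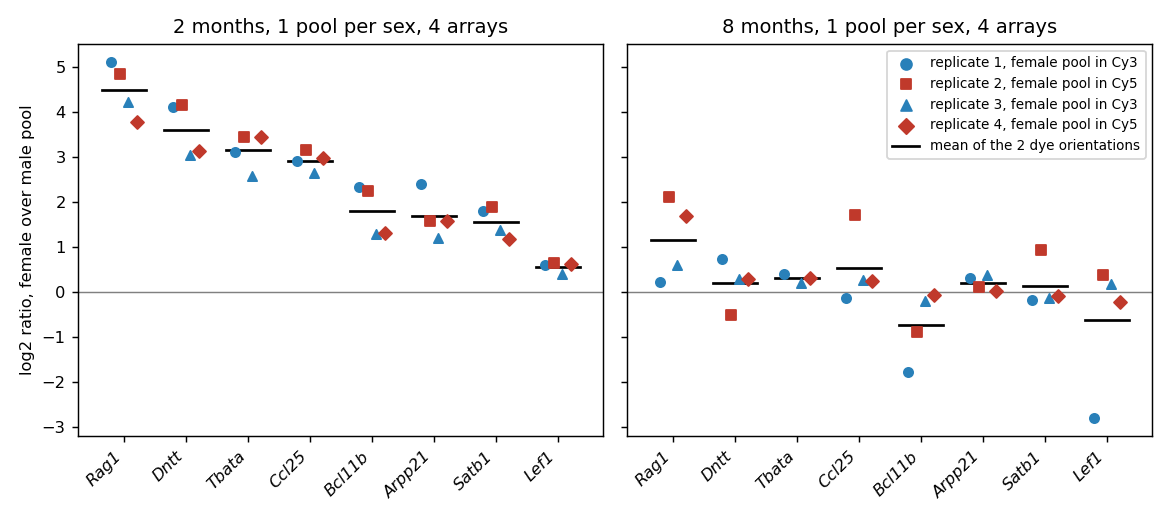
Log2 ratio of the female over the male pool (y axis) for the 8 genes (x axis) at 2 months (left) and 8 months (right); each point is 1 array, marked by replicate and coloured by the dye of the female pool, and the bar is the mean of the 2 dye orientations. All points at 2 months lie above 0, from 0.39 for Lef1 to 5.11 for Rag1, while those at 8 months lie on both sides of 0 except for Rag1, Tbata and Arpp21, above it, and Bcl11b, below it.

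Counted together, 7 of the 8 genes were higher in the female pool by the size rule at 2 months and none was lower, where 2.41% of the 7812 rows tested were higher and 1.77% lower. At 8 months 1 of the 8, Rag1, was higher and 1, Bcl11b, was lower, where 1.68% of rows were higher and 1.31% lower. On replicates 3 and 4 alone Rag1 was higher and none was lower, beside 2.08% and 1.26% of rows. The median of the 8 genes was 2.35 at 2 months and 0.19 at 8 months, or 0.21 on replicates 3 and 4, while the median of all rows was -0.02 and -0.03. All 8 genes were above 0 on every array at 2 months, as were 17.7% of rows, and 3 of the 8, Rag1, Tbata and, as the mean of its probes, Arpp21, on every array with a value at 8 months, as were 5.79% of rows. Since these ratios chose the genes, nothing is read from the counts.

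The ratio at 2 months minus that at 8 months was positive for each gene. It was 3.41 for Dntt, 3.33 for Rag1, 2.84 for Tbata, 2.53 for Bcl11b and 2.39 for Ccl25. It was 1.49 for Arpp21, 1.43 for Satb1 and 1.18 for Lef1, the last 0.58 on replicates 3 and 4. For all 8 genes every array at 2 months lay above every array at 8 months, which held for 2.89% of all rows, with the opposite order in 3.03%. For Lef1 the gap was 0.01. The difference between the ages was not tested across animals.

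**Figure D2:**
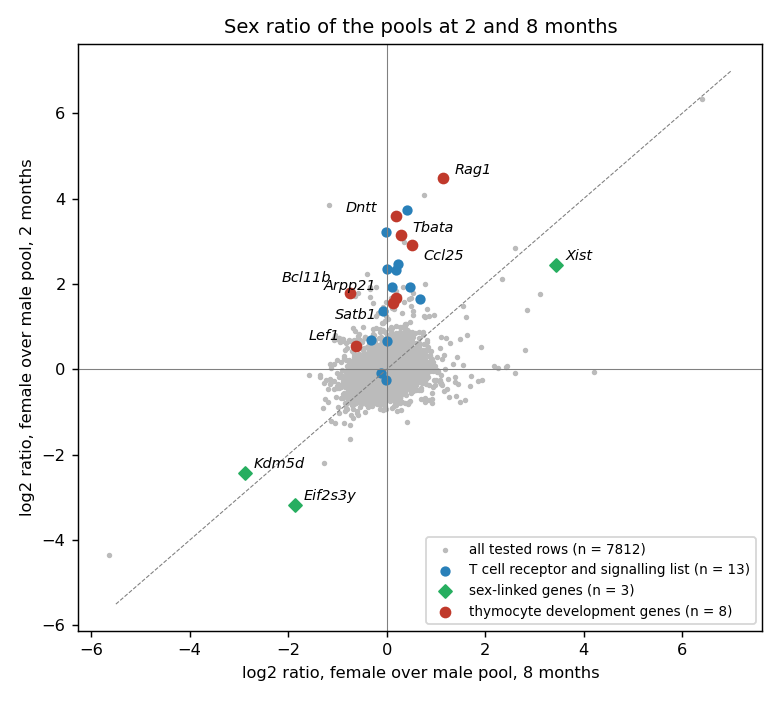
Log2 ratio of the female over the male pool at 8 months (x axis) and at 2 months (y axis); each point is a tested row, with the 8 thymocyte development genes in red, 13 T cell receptor and signalling genes in blue and 3 sex-linked genes in green, and the dashed line marks equal ratios. All 8 red points lie above the line, by 1.18 for Lef1 to 3.41 for Dntt, with x values from -0.74 for Bcl11b to 1.15 for Rag1, whereas the sex-linked genes have the same sign at both ages.

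By size at 2 months the genes fell into 3 steps. Rag1, Dntt, Tbata and Ccl25 stood between 2.91 and 4.48, with array ranges that overlapped from each gene to the next. Bcl11b, Arpp21 and Satb1 stood between 1.56 and 1.79 and overlapped. The lowest array value of the upper step was 2.56, for Tbata, and the highest of the middle step 2.40, for Arpp21. That separation holds for the mean of the Arpp21 probes, since probe 12036 alone reached 3.03. Lef1 came last, with a highest value of 0.63 against a lowest of 1.18 for Satb1. Probes of a cDNA array can differ in how far they compress a ratio, so these steps order the ratios and not the amounts of the transcripts.

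The 4 arrays at 2 months did not give the same size for every member. Replicates 1 and 2, which had opposite dye orientations, were both above replicates 3 and 4 for Rag1, Dntt, Bcl11b, Arpp21 and Satb1. The means of the 2 pairs of arrays were 4.97 and 3.99 for Rag1, 4.12 and 3.08 for Dntt, and 2.29 and 1.29 for Bcl11b. The pairs differed by 0.28 for Tbata, 0.23 for Ccl25 and 0.11 for Lef1, and none of these had both replicates above. Of the 184 rows higher by the size rule with values on all 4 arrays, 39.1% had this order of the pairs and 8.15% the reverse, or 37.9% with this order among the 177 that were no members. The mean with the female pool in Cy5 minus that in Cy3 was -0.35 for Rag1 and 0.60 for Tbata, the extremes of the 8 genes.

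**Figure D3:**
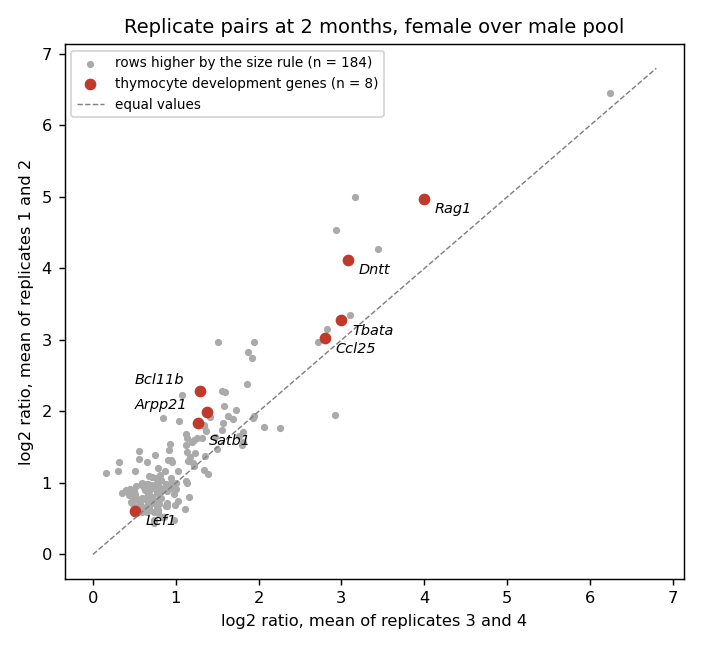
Mean log2 ratio of the female over the male pool at 2 months on replicates 3 and 4 (x axis) and on replicates 1 and 2 (y axis); grey points are the 184 rows higher by the size rule with values on all 4 arrays, red points are the 8 genes, of which Lef1 was just under that rule, and the dashed line marks equal values. Rag1, Dntt and Bcl11b lie about 1 unit above the line, and Tbata, Ccl25 and Lef1 close to it.

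Genes with the most similar pattern were sought by Pearson's r over the 8 arrays with the median of the 8 genes, among 213 other genes that met the size rule at 2 months and had all values. The arrays come from 2 pairs of pools, so r mostly measures the contrast of the ages and carries no test. The 10 highest, from 0.98 to 0.95, were Cd3g, Ucp1, Fasn, Cd3e, Cidec, Cd8a, Lat, Cd4, Trgv2 and Cd3d. Of these, 7 encode parts of the T cell receptor complex, its co-receptors or its adaptor. The gamma chain segment Trgv2 was at 1.57 ± 0.32 at 2 months (SD, n = 4 arrays) and 0.36 ± 0.35 at 8 months. The other 3 are fat genes: Ucp1, the uncoupling protein of brown fat, was at 2.99 ± 0.21 and 0.34 ± 0.52, the fatty acid synthase Fasn at 1.88 ± 0.23 and -0.35 ± 0.40, and Cidec, which acts on lipid droplets, at 1.71 ± 0.23 and 0.26 ± 0.25. Among the 8 genes themselves r was 0.93 to 0.98 for 7 and 0.60 for Lef1. Each of the 8 is itself part of that median and was chosen by these ratios. Its r is therefore not comparable with that of the other genes.

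The wider T cell programme was read from lists of related genes. Of 13 measured genes of the T cell receptor complex, its co-receptors and signalling, 11 were higher by the size rule at 2 months and none lower, with a median of 1.92. At 8 months none of the 13 was called on the 4 arrays, and the median was 0.01, or 0.28 on replicates 3 and 4. Cd8a, the co-receptor of cytotoxic T cells, was at 3.74 ± 0.93 (SD, n = 4 arrays), the adaptor Lat at 3.22 ± 0.17, Rasgrp1, an activator of Ras in T cells, at 2.46 ± 0.61 and Cd3g at 2.35 ± 0.56. At 8 months these genes were at 0.41, -0.01, 0.22 and 0.00. On replicates 3 and 4 alone the list gene Sla, mentioned after its value was seen, met the size rule at 0.63. The 2 genes not called at 2 months, chosen for mention after their values were seen, were Thy1 at -0.24 and the kinase gene Fyn at -0.08.

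T lineage transcription factors and Notch genes had fewer calls. Of 15 measured, 4 were higher at 2 months and none lower, with a median of 0.13. The 4 were Ikzf1, which encodes Ikaros, at 1.66 ± 0.67 (SD, n = 4 arrays), the orphan receptor gene Nr4a1 at 1.29 ± 0.31, Tox, a factor of positive selection, at 1.24 ± 0.36 and Gata3 at 0.65 ± 0.16. At 8 months 2 were higher, Nr4a1 at 0.96 ± 0.57 and Runx1, a factor of early T cells mentioned after its value was seen, at 0.83 ± 0.52. On replicates 3 and 4 Nr4a1 was at 0.85 and Runx1 at 0.42, which is under the size rule. The list median at 8 months was -0.10, or 0.04 on replicates 3 and 4.

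Besides Rag1 and Dntt, 5 genes of antigen receptor recombination were measured, and none was called at either age, with medians of -0.06 and 0.13, the latter 0.02 on replicates 3 and 4. Xrcc6, which encodes the Ku70 subunit of DNA end joining used by all cells, came nearest, at 0.58 ± 0.08 at 2 months. Of 7 cytokine and migration receptors of thymocytes, 1 was higher at 2 months, the factor Klf2 at 0.85 ± 0.06 (SD, n = 4 arrays), and 1 was lower at 8 months, the stem cell factor receptor Kit at -1.13 ± 0.21 (n = 3 arrays). Kit was at -1.10 on replicates 3 and 4. The list gene Itga4, mentioned after its value was seen, was at -0.96 on those arrays and met the size rule there. The list medians were 0.29 and 0.04, the latter -0.20 on replicates 3 and 4.

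Markers of the thymic stroma and epithelium were partly higher at 2 months, beside Tbata and Ccl25. Of 11 measured, 4 were higher and 1 lower, with a median of 0.54. Keratin 8 (Krt8) was at 1.45 ± 0.49 (SD, n = 4 arrays), the epithelial adhesion gene Epcam at 1.07 ± 0.39, Foxn1, the master factor of thymic epithelium, at 0.91 ± 0.41 and Ly75, the receptor DEC-205, at 0.80 ± 0.24. Foxn1 was at 1.17, 0.95, 0.32 and 1.19 on replicates 1 to 4, above 0 on each. The Notch ligand gene Dll1, at -0.72 ± 0.56, was the 1 lower gene and was chosen for mention after its value was seen. At 8 months none was higher and Foxn1 was lower, at -0.63 ± 0.81 (n = 3 arrays), with no value on replicate 4, and the median was -0.14, or -0.04 on replicates 3 and 4 over the 9 genes with values there.

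Of 17 measured genes of the beta-catenin pathway in which Lef1 acts, none was higher at either age. The Lef1 relative Tcf7l2 was lower at 2 months, at -0.59 ± 0.13, and at 8 months, at -0.85 ± 0.43 (SD, n = 4 arrays), but at -0.53 on replicates 3 and 4 it did not meet the size rule. The medians were -0.05 and -0.14, or -0.07 on replicates 3 and 4. Cell cycle genes, which dividing thymocytes express along with other dividing cells, had a median of 0.33 at 2 months, and 3 of 18 were higher: Mki67 at 1.10 ± 0.28, Top2a at 0.97 ± 0.41 and Cdk1 at 0.68 ± 0.20. At 8 months none was higher and 2 were lower, Ccne1 at -0.71 ± 0.87 and, mentioned after its value was seen, the kinase gene Aurka at -1.07 ± 0.63, with a median of -0.25. On replicates 3 and 4 Aurka was at -0.72 and Ccne1 at -0.32, under the size rule, and the median was -0.20.

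Markers of other cells and tissues were read beside these results, and their part in them was not tested. Adipocyte markers were higher in the same pool at 2 months, in 4 of 7, with Fasn at 1.88, the desaturase Scd1 at 1.79 ± 0.13 (SD, n = 4 arrays), Cidec at 1.71 and the carbonic anhydrase Car3 at 1.33 ± 0.15. Their medians were 1.33 and -0.09 at 2 and 8 months, the latter -0.05 on replicates 3 and 4. Of 5 brown fat markers Ucp1 was higher and none lower, with medians of -0.07 and -0.22, the latter -0.06 on replicates 3 and 4. Lung markers were higher in 3 of 4, with surfactant protein C (Sftpc) at 1.76 ± 0.31, surfactant protein D (Sftpd) at 1.07 ± 0.36 and the club cell gene Scgb1a1 at 0.66 ± 0.09. At 8 months Sftpc was at 3.12 ± 1.65, the 1 lung marker then higher, and at 3.89 on replicates 3 and 4. The list medians were 0.87 and 0.37, the latter 0.25 on replicates 3 and 4.

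Markers of other blood cells had few calls at 2 months. Of 8 B lineage markers none was higher at 2 months and 1, the B cell receptor component Cd79a, was lower at -0.60 ± 0.34 (SD, n = 4 arrays). At 8 months Jchain, the immunoglobulin joining chain, was higher at 2.61 ± 1.01 and the class II chaperone Cd74 was lower at -0.63 ± 0.65. On replicates 3 and 4 Jchain was at 2.66, while Cd74 was at -0.08 and did not meet the size rule. The list medians were -0.26 and -0.16, or -0.08 on replicates 3 and 4. All 10 macrophage and myeloid markers had ratios below 0 at 2 months, with a median of -0.46, and 9 were above 0 at 8 months, with a median of 0.29, or 0.31 on replicates 3 and 4. By the size rule the Fc receptor gene Fcgr1 was lower at 2 months, at -0.80 ± 0.77, and higher at 8 months, at 0.92 ± 0.73, or 0.86 on replicates 3 and 4. Of 4 NK and cytotoxic markers the granzyme gene Gzma was higher at 2 months, at 0.91 ± 0.15, with medians of 0.23 and 0.30, or 0.29 on replicates 3 and 4. Of 5 erythroid markers the transferrin receptor Tfrc was lower at 2 months, at -1.24 ± 0.62. At 8 months the red cell band 3 gene Slc4a1 was higher at 0.71 ± 0.08 and the erythropoietin receptor gene Epor lower at -0.80 ± 0.50. On replicates 3 and 4 Slc4a1 was at 0.77, while Epor was at -0.55 and did not meet the size rule. Alas2 at 0.88 and Car2 at 0.84, mentioned after their values were seen, met it as higher on those arrays alone. The list medians were -0.13 and 0.62, or 0.77 on replicates 3 and 4.

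For heart muscle, none of 11 cardiomyocyte markers met the size rule at either age, with ratios from -0.28 to 0.30 at 2 months and medians of -0.02 and -0.27, the latter -0.07 on replicates 3 and 4. The atrial peptide gene Nppa had the largest ratio at 2 months, at 0.30 ± 0.19 (SD, n = 4 arrays).

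Across both ages, limma on 2 values per row, 1 per pair of pools, with Benjamini-Hochberg adjustment over 7812 rows called 0 of the 140 genes measured on these 15 lists, with 34 at an unadjusted p below 0.05. Over all rows it called 5 as higher (0.064%) and 2 as lower (0.0256%), with 811 rows (10.4%) at an unadjusted p below 0.05. The difference between the ages is the error term of this fit. A gene higher in the female pool at 2 months alone could therefore hardly be called, and no conclusion is drawn from the 0 for such genes. Among the genes named here the sex-linked Kdm5d and Xist were called, with limma adjusted p = 0.00501 and 0.0244. The lists, like the members, were drawn up with earlier results of these data known.

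**Figure D4:**
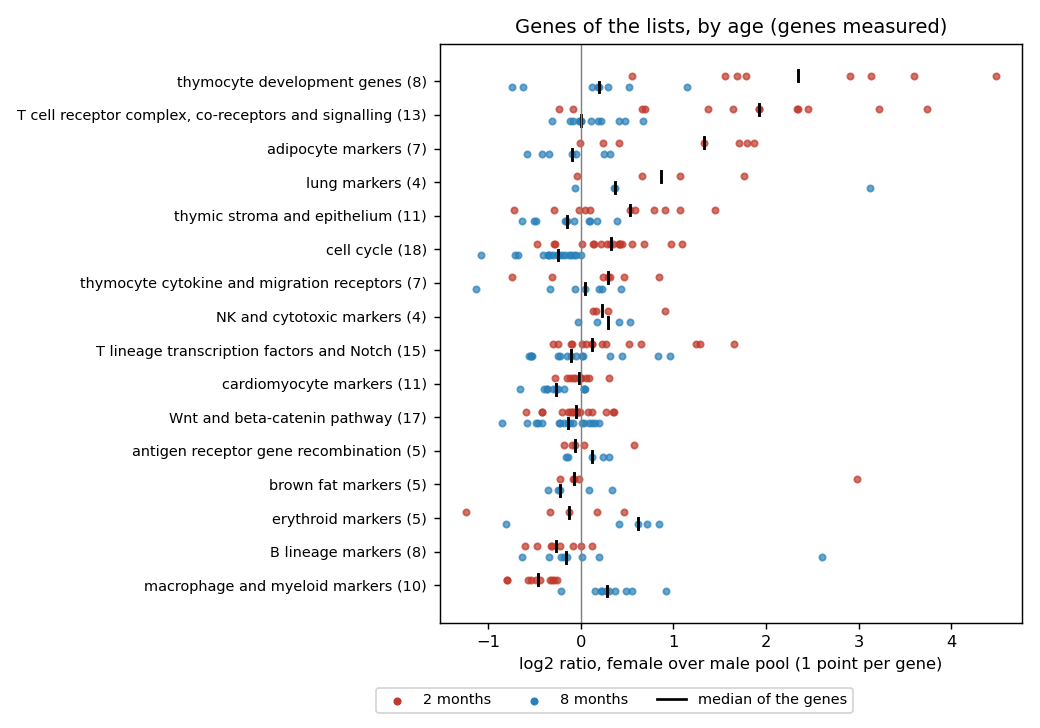
Log2 ratio of the female over the male pool (x axis) for each measured gene of the 15 lists and for the 8 thymocyte development genes (y axis, with the number of genes in brackets); red points are 2 months, blue points 8 months, and black bars the median of the genes. The medians at 2 months run from -0.46 for macrophage markers to 1.92 for the T cell receptor list and 2.35 for the 8 genes, and at 8 months none of the 3 sets with the highest medians at 2 months is above 0.19.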

How the data were processed

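The deposited table holds log10 ratios, from the authors' Agilent Feature Extraction 7.1.1, per the labels; no later normalization step is stated in these sources. Values ended at 2 and -2, and the sign of sex-linked genes turned with the dye, as for a ratio of Cy5 over Cy3. An exact 0, which was 6.38 to 13.9% of an array, was taken as no measurement. Ratios became log2 values of female over male. Gene symbols came from the annotation of the platform and were brought up to date with RefSeq (GRCm38.p6; 6600 of 6671 rows matched), and probes of a gene were averaged. A row needed values on 3 of the 4 arrays of each age and both dye orientations, which left 7812.

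The members, lists and tests were chosen with earlier results of these data known. Named from each list were up to 4 genes by size at 2 months among those meeting the size rule at either age, or 1 where none did. The fit over both ages used limma 3.58.1 in R 4.3.3 (eBayes, two-sided) with 1 mean per age. The fit and the size rule were tested on simulated data with the same true ratio at both ages, which do not cover genes that differ between the ages. The alternatives were zeros kept, centring, scaling, trend removal, replicates 3 and 4 at 8 months, no filter, a plain mean, a single probe per gene and each array left out. The number of arrays limits the precision.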

Additional observations from a re-analysis of the deposited data

Results flagged for a closer look

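Of 52 genes looked at, 3 had 1 array far from the other 3 at an age, by Dixon's gap test; chance flags about 1 group in 20, and 101 groups of 4 arrays were looked at. They were Satb1 at 8 months, at 0.93 on replicate 2, the cyclin gene Ccne1 at 8 months, at -1.9996 on replicate 1, and Gzma at 2 months, at 1.14 on replicate 4.

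Among the 52 genes looked at, 6 had all values of 1 age on 1 side of 0 and all values of the other age opposite. These differences between the ages were not tested. The 52 genes were mostly picked by their ratios on these arrays, and the share of all rows with this split was not counted. For this reason nothing is read from the count of 6. The ratio at 2 minus 8 months was 2.53 for Bcl11b, 1.54 for Foxn1, 1.00 for Cd3d, 0.57 for Nppa, -1.04 for Slc4a1 and -1.72 for Fcgr1. Bcl11b was at -0.21 and -0.06 on replicates 3 and 4 at 8 months, and Foxn1 was at -0.75 on replicate 3, with no value on replicate 4.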

How the results depend on the processing

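Under 16 alternatives, 8 of them leaving out 1 array, all 128 recomputed ratios of the members at 2 months stayed above 0, and 252 of 254 ratios over both ages moved by less than the SD of the arrays. The other 2 were those of Arpp21 with a single probe, 2.25 and 0.40. Leaving out 1 array could not move a ratio as far as that SD, so those settings do not test it. Every probe of the members was above 0 on each array at 2 months. Only centring and trend removal could therefore have turned a sign there. Settings that act on 1 age alone returned the same values at the other age. For Lef1 at 8 months the SD was 1.48, and with an array left out its ratio ran from -1.37 to 0.12. The members' median was 2.19 to 2.58 at 2 months and 0.16 to 0.29 at 8 months. The count of members called at 2 months was 7, or 8 without replicate 3, and all 8 stayed higher at 2 than at 8 months with no overlap. Leaving arrays out, the filter and the plain mean could not undo that order, so only the other settings could have. At 8 months Rag1 was called under all 16 and Bcl11b under 11. No filter, the plain mean and the arrays left out at 2 months could not change either value. For Rag1 the same holds for zeros kept and a single probe. The count of called members was 1 with scaled arrays, on replicates 3 and 4 and with a single probe, and 1 to 2 with an array left out. With a single probe Bcl11b had no value at 8 months. Rows called at 8 months numbered 233, or 92 with scaled arrays and 228 to 533 with an array left out. The count called by limma was 7, or 0 with zeros kept (887 at an unadjusted p below 0.05), 3 with scaled arrays, 4 with the trend removed, 1 on replicates 3 and 4, and 4 to 105 with an array left out (88 without replicate 1 and 105 without replicate 4 at 8 months). With 2 values per row these counts have 1 residual degree of freedom; the cause of their changes was not tested. No paired analysis was possible because the ages were compared without a test, the replicate numbers marking technical arrays. Signal over background is unknown without intensities.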
